A study of Mus musculus with 8 samples.

Results

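The motile cilia program comprised 44 genes, listed by name for their place in the making or the structure of motile cilia, and all 44 were found by Ensembl identifier among the 52325 genes of the count table. The genes were measured by RNA sequencing of endometrium that was cut by laser from frozen uterine sections of female mice. There were 4 WT libraries and 4 Thra1PV/+ libraries, the latter from mice with the PV mutation, a frameshift at the end of the thyroid hormone receptor TRα1, knocked into 1 allele of Thra. TRα1PV is a dominant negative receptor, and the knock-in is not limited to the uterus. Mice of both genotypes had been synchronized in soiled cages of males and were taken in metestrus, as judged by eye and by impedance. The age of these mice is not given in the sources used here. The labels do not name the animals, so p-values measure the spread between these libraries. Each library held between 48791883 and 59819099 estimated counts, and the captured tissue was a mixture of cell types, so fewer cells of a type and less RNA per cell cannot be told apart.

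Motile cilia beat by means of dynein motors that slide the outer doublet microtubules of the axoneme, while radial spokes and a central pair of microtubules control the stroke. In multiciliated cells the regulators Gmnc and Mcidas start the program, centrioles are multiplied, and FOXJ1 and RFX factors then switch on the genes of the axoneme. In the mouse reproductive tract such cells are plentiful in the oviduct and fewer in the uterus. Most other cells carry a single primary cilium, which lacks dynein arms but is built by the same intraflagellar transport. The question asked of these 44 genes was whether the structural genes followed Foxj1, which was already known to be lower in Thra1PV/+ endometrium when they were listed.

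Levels between genes were compared in deposited TPM, which are scaled by gene length. Only 14 of the 44 genes had a mean of 1 TPM or more over the 8 libraries, and 30 had less. Tppp3, with 115 ± 82.8 TPM (SD, n = 4) in WT and 71.1 ± 112 TPM in Thra1PV/+ endometrium, and Capsl, with 30.5 ± 10.8 TPM and 29.9 ± 3.74 TPM, led the list. Rsph9 came next with 14.7 ± 4.41 TPM in WT libraries. Cfap126 and Foxj1, with 8.23 ± 2.88 TPM and 8.81 ± 2.67 TPM in WT, differed by less than their spread. Of the 44 genes, 30 had enough counts to be tested between genotypes, and the other 14 were under the filter on low counts, with at most 31 counts in any library. The tested genes are therefore not all members, and a gene that passed the filter could do so through the genotype in which it was higher.

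**Figure D1:**
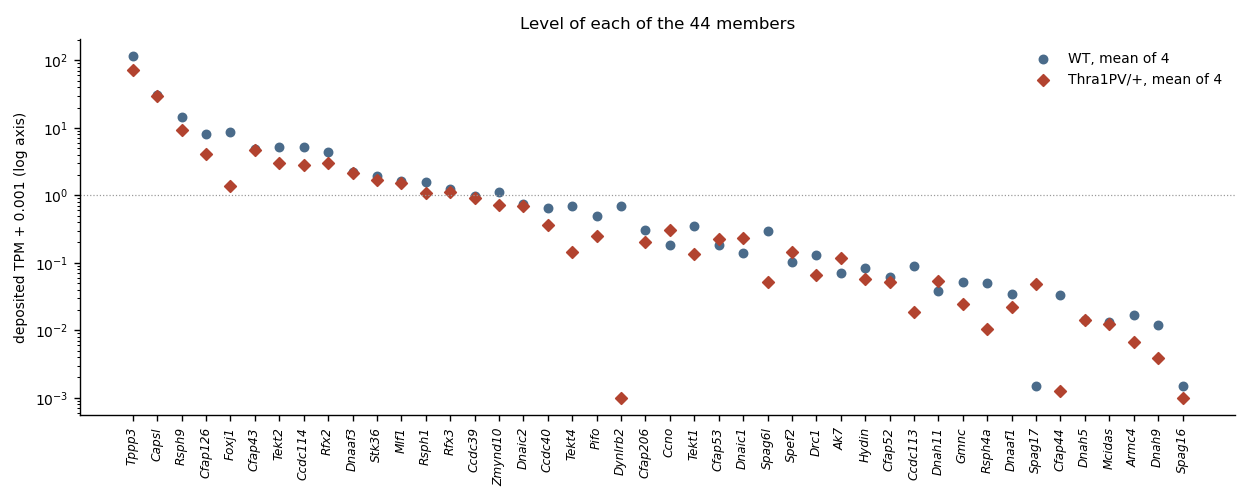
Mean deposited TPM of each of the 44 genes in 4 WT libraries (circles) and 4 Thra1PV/+ libraries (diamonds), on a log axis after adding 0.001, ordered by the mean over all 8 libraries. Levels run from 93.0 TPM for Tppp3 down to genes near 0, and the dotted line marks 1 TPM.

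Foxj1, the forkhead factor at the head of the axonemal program (ENSMUSG00000034227.7, chromosome 11, 116330704 to 116335399, minus strand of GRCm38), had 22.9, 12.8, 13.8 and 18.7 CPM in WT libraries 1 to 4. In Thra1PV/+ libraries 1 to 4 it had 3.18, 2.15, 2.86 and 3.55 CPM. The lowest WT library was 3.60 times the highest Thra1PV/+ library, and the genotypes did not overlap. Foxj1 fell by 2.54 on the log2 scale with a standard error of 0.27 (edgeR, adjusted p = 0.00723), which restates what was known when the genes were listed. Called genes are those with an adjusted p up to 0.1 that differ at least 2 fold, and adjusted p-values without another tool's name are from edgeR. Among all 18174 tested genes 0.066% were called lower and 0.924% higher. Beside Foxj1, edgeR called 0 of 29 tested members lower and 0 higher, with 2 lower and 1 higher at an unadjusted p under 0.05, beside 4.72% and 5.05% of all tested genes. Beside Foxj1, limma voom called 0, beside 0.319% of all genes lower and 1.39% higher, and DESeq2 called 1, Tekt4, which was lower, but DESeq2 called 791 genes in all (0.736% of 30306 lower and 1.87% higher) where edgeR called 180. On counts simulated for the genes that edgeR tested, with the spread that edgeR estimated, DESeq2 called more unchanged genes than edgeR did. This setting can favour edgeR, so it does not decide which of the DESeq2 calls given here hold. Leaving out WT library 1, which held far more smooth muscle RNA than the others, gave a Foxj1 log2 fold change of -2.32 (adjusted p = 0.0127, and 4.85e-16 to 0.0475 over all settings tried).

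Foxj1 was also set against epithelial markers, since the share of epithelium differed between libraries. Its log2 CPM minus the mean log2 CPM of 12 simple epithelium markers was -2.69, -3.80, -4.24 and -4.29 in WT libraries 1 to 4. The same difference was -5.85, -7.29, -6.99 and -6.43 in Thra1PV/+ libraries 1 to 4. Every Thra1PV/+ library was below every WT library, and the mean difference between genotypes was -2.88. Against 10 gland markers the mean difference was -2.50, and the values ran from -1.58 to -0.17 in Thra1PV/+ and from 0.91 to 2.55 in WT libraries. Since the fall of Foxj1 was known when the genes were listed, these differences are a description with no test.

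The other regulators were low or overlapped. Gmnc, a geminin relative that starts multiciliation, had 10, 26, 0 and 0 counts in WT libraries 1 to 4 and 4, 0, 8 and 1 in Thra1PV/+ libraries 1 to 4. Mcidas, which acts with E2F factors after Gmnc, had at most 4 counts in any library, where 3 counts or fewer in all libraries of a genotype are taken as the floor. The earliest regulators of multiciliation were thus low in both genotypes, and the highest count of Gmnc was in WT library 2. Ccno, a cyclin-like protein needed for centriole multiplication, had 0.153, 0.235, 0.199 and 0.188 CPM in WT and 0.184, 0.487, 0.511 and 0.333 CPM in Thra1PV/+ libraries 1 to 4. Thra1PV/+ libraries 2 to 4 were above all WT libraries while library 1 lay among them (log2 fold change 0.95, adjusted p = 0.507). RFX factors bind the X-box of cilia genes. Rfx2 (10.8 ± 6.01 CPM (SD, n = 4) in WT and 8.22 ± 2.01 CPM in Thra1PV/+) and Rfx3 (8.24 ± 0.972 and 7.75 ± 3.39 CPM) overlapped between genotypes.

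Promoters are shown for the 3 further members with an unadjusted p under 0.05, the lowest among the members beside Foxj1. They are RefSeq sequences from 250 bases before to 50 after a start, with GTTGCC, the core of the X-box, in capitals on either strand (GGCAAC on the other strand).
Ccno promoter, chr13:112987552-112987851, GRCm38.p6, plus strand: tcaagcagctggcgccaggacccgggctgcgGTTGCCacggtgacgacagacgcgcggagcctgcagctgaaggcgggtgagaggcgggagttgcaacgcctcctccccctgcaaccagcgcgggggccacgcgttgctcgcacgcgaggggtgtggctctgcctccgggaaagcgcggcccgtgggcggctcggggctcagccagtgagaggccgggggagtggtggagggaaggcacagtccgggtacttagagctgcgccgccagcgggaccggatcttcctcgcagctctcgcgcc
Ccdc114 promoter, chr7:45923965-45924264, GRCm38.p6, plus strand: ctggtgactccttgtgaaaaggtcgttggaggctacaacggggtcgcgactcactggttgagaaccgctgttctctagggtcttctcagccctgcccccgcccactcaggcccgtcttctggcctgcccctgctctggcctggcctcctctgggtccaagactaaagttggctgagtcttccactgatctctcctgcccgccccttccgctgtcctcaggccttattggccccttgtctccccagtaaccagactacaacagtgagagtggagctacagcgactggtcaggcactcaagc
Tekt4 promoter, chr17:25471340-25471639, GRCm38.p6, plus strand: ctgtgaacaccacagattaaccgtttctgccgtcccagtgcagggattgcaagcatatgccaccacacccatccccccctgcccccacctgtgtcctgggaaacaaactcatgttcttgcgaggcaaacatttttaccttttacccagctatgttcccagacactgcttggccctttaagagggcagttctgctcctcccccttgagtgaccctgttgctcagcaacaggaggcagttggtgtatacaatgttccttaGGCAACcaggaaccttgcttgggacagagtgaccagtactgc
The letters stand in the windows of Ccno and Tekt4 and not in that of Ccdc114. The Tekt4 window lies inside the gene as GENCODE draws it (chromosome 17, 25454615 to 25476602). Of the 44 members, 37 had 44 such windows, and 47.7% of these held GTTGCC on either strand, beside 12.5% of all 32851 promoter windows of the same length. GTTNCC followed after 0 to 3 bases by GGNAAC, which can overlap the first motif, was in 1 member window, a share of 2.27% beside 0.804% of all windows. The forkhead motif GTAAACA was in 3 member windows, or 6.82%, beside 3.65%. These shares describe letters in the windows, base composition was not matched, and windows of 1 gene can overlap.

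Outer dynein arms are the main motors of the beat. Of their heavy chains, Dnah5 had 25, 15, 0 and 7 counts in WT and 12, 6, 1 and 18 in Thra1PV/+ libraries 1 to 4, Dnah11 had at most 42 counts in any library and Dnah9 at most 10. These heavy chains were thus under 1 CPM in every library of both genotypes. The intermediate chain genes Dnaic1, with at most 16 counts, and Dnaic2 (1.62 ± 0.918 CPM (SD, n = 4) in WT, 1.45 ± 0.613 CPM in Thra1PV/+) overlapped. Ccdc114, part of the complex that docks outer arms on the doublets (ENSMUSG00000040189.17, chromosome 7, 45924072 to 45948963, plus strand), had 9.10, 8.63, 7.80 and 7.22 CPM in WT libraries 1 to 4. It had 4.04, 4.77, 4.03 and 5.55 CPM in Thra1PV/+ libraries 1 to 4. The lowest WT library was above the highest Thra1PV/+ library, for a log2 fold change of -0.83 that did not pass the test (standard error 0.21, adjusted p = 0.206, and a DESeq2 adjusted p of 0.00110 at a fold change under 2, with adjusted p 0.00110 to 0.575 over all settings tried). Armc4, of the same docking complex, had at most 7 counts.

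Dynein arms are preassembled in the cytoplasm. The assembly factor Dnaaf3 had 4.33, 3.21, 3.46 and 3.20 CPM in WT and 3.08, 3.27, 4.66 and 3.77 CPM in Thra1PV/+ libraries 1 to 4, ranges that overlapped throughout (log2 fold change 0.06, standard error 0.25). Zmynd10, another assembly factor, had a log2 fold change of -0.53 (adjusted p = 0.736), and Dnaaf1 had at most 10 counts. Ccdc39, a ruler protein that spaces the arms and spokes along the doublet, had 3.93, 3.50, 0.657 and 0.963 CPM in WT and 2.99, 0.913, 2.002 and 1.52 CPM in Thra1PV/+ libraries 1 to 4. WT libraries 1 and 2 and Thra1PV/+ library 1 were highest, and the genotypes overlapped (log2 fold change -0.28, standard error 0.64). The log2 fold change of its partner Ccdc40 was -0.75, smaller than its standard error of 0.92, and Drc1, of the nexin-dynein regulatory complex, had at most 31 counts.

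Radial spokes pass signals from the central pair to the dyneins. Rsph9, a spoke head protein and the third most abundant member in TPM, had 13.6, 9.98, 6.76 and 8.73 CPM in WT and 4.11, 3.63, 6.46 and 10.8 CPM in Thra1PV/+ libraries 1 to 4. The WT libraries lay mostly above, but Thra1PV/+ library 4 was higher than 3 of them (log2 fold change -0.64 with standard error 0.39, adjusted p = 0.657). It was -1.04 without Thra1PV/+ library 4 and -0.40 without WT library 1. Rsph1 had a log2 fold change of -0.43 (adjusted p = 0.687), and Rsph4a at most 18 counts. Of the central pair genes, Stk36, a kinase needed for the pair, had 5.09, 3.52, 4.64 and 4.23 CPM in WT and 4.13, 4.73, 4.15 and 5.39 CPM in Thra1PV/+ libraries 1 to 4, and the genotypes overlapped (log2 fold change 0.07, standard error 0.23). Spag6l had 36, 39, 2 and 15 counts in WT and 10, 0, 2 and 8 in Thra1PV/+ libraries 1 to 4 (log2 fold change -2.21, standard error 1.02, adjusted p = 0.542). WT library 3 was as low as the Thra1PV/+ libraries, and how reads were divided between Spag6l and its near copy Spag6 cannot be seen in the counts. Hydin (-0.53) and Spef2 (-0.28) had log2 fold changes smaller than their standard errors, and Spag16 and Spag17 had at most 1 and 4 counts.

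Among proteins of the doublet microtubules, Tekt4, a tektin filament protein (ENSMUSG00000024175.1), had 0.363, 1.88, 0.756 and 0.293 CPM in WT libraries 1 to 4. It had 0.110, 0.101, 0.266 and 0.245 CPM in Thra1PV/+ libraries 1 to 4. The genotypes did not overlap, though WT libraries 1 and 4 were close to Thra1PV/+ libraries 3 and 4 and WT library 2 stood above all (log2 fold change -2.17, standard error 0.69, adjusted p = 0.344, and 0.0715 by DESeq2, in a range of 0.0715 to 0.657 over all settings tried). Without WT library 2 the log2 fold change was -1.33. Cfap126, which helps to place basal bodies, had 6.43, 6.08, 2.57 and 4.08 CPM in WT and 4.02, 1.46, 1.88 and 2.64 CPM in Thra1PV/+ libraries 1 to 4. Thra1PV/+ library 1 lay within the WT range (log2 fold change -0.94, standard error 0.43, adjusted p = 0.532). Tekt1 (-1.34), Tekt2 (-0.56), Pifo (-0.99) and Cfap206 (-0.75) had negative log2 fold changes that did not pass the test. Cfap43 (0.05) and Cfap53 (0.30) had log2 fold changes smaller than their standard errors, and Cfap44, Cfap52 and Ccdc113 had at most 4, 12 and 17 counts.

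Of the remaining genes of ciliated cells, Tppp3, a tubulin-binding protein that is also expressed outside such cells, had 144, 158, 42.2 and 38.0 CPM in WT and 180.4, 8.52, 14.3 and 14.6 CPM in Thra1PV/+ libraries 1 to 4. Thra1PV/+ library 1 was the highest of all and the genotypes overlapped (log2 fold change -0.81, standard error 1.02). Without that library the log2 fold change was -2.88 (adjusted p = 0.142, and 0.142 to 0.995 over all settings tried), and it was -2.02 with limma voom. Dynlrb2, a dynein light chain, had 29, 2, 0 and 12 counts in WT libraries 1 to 4 and 0 counts in each Thra1PV/+ library. WT library 3 was also at 0, and no fold is given at these counts. Capsl (-0.11), Mlf1 (0.11) and Ak7 (0.33) had log2 fold changes smaller than their standard errors.

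**Figure D2:**
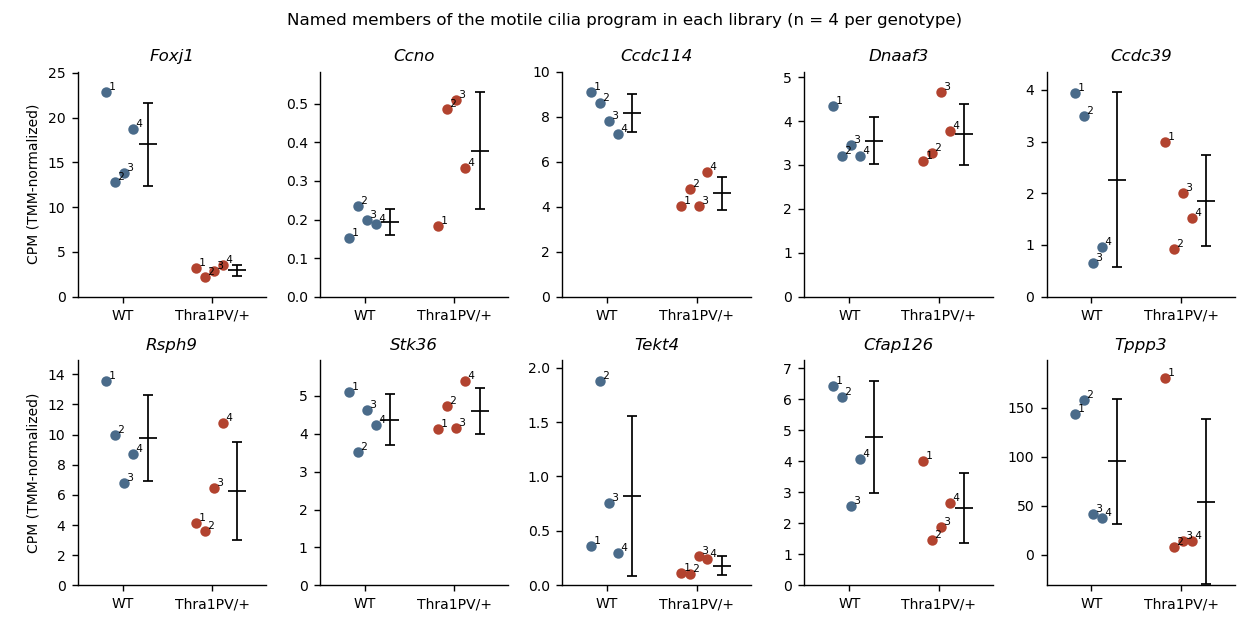
CPM of 10 named members in each WT (blue) and Thra1PV/+ (red) library, numbered by replicate, with the mean and SD of 4 libraries. Foxj1, Ccdc114 and Tekt4 do not overlap between genotypes, and Tppp3 is highest in Thra1PV/+ library 1 and WT libraries 1 and 2.

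Over the 29 tested members beside Foxj1, 21 had a negative log2 fold change and the median was -0.40, where it was -0.41 with Foxj1, beside 56.8% negative and a median of -0.05 over all tested genes. Without WT library 1, 16 of these 29 were negative with a median of -0.20, beside 49.6% and a median of 0.0025 over all genes. The median was -0.15 without WT library 2 and -0.63 without WT library 3, beside -0.0087 and -0.0079 over all genes. At an unadjusted p under 0.05, 2 of the 29 were lower (Ccdc114 and Tekt4) and 1 was higher (Ccno), where 4.72% of all tested genes were lower and 5.05% higher. The count lower beside Foxj1 was 5 of 43 with DESeq2, beside 3.85% of all genes it fitted, and 5 of 29 with limma voom, beside 6.33%. It was 5 without WT library 3 and 5 without Thra1PV/+ library 1, beside 5.38% and 6.29% of all genes. The count higher was 0 in each comparison that left out a library other than WT library 2 or Thra1PV/+ library 1. Beside Foxj1, the members without overlap between genotypes were also Ccdc114 and Tekt4, 2 of the 29 tested (2 of the other 43 in all). In the higher direction 0 members were without overlap. Of all tested genes 2.49% were lower and 3.55% higher without overlap. The smallest adjusted p beside that of Foxj1 was 0.206. With every gene that had a count in any library tested, 43 members entered beside Foxj1 and 33 were negative, beside 53.2% of all genes. Of these 0 were called lower and 0 higher by edgeR, beside 0.0396% and 0.577% of all genes, and 3 were lower and 0 higher at an unadjusted p under 0.05, beside 3.69% and 4.43%.

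**Figure D3:**
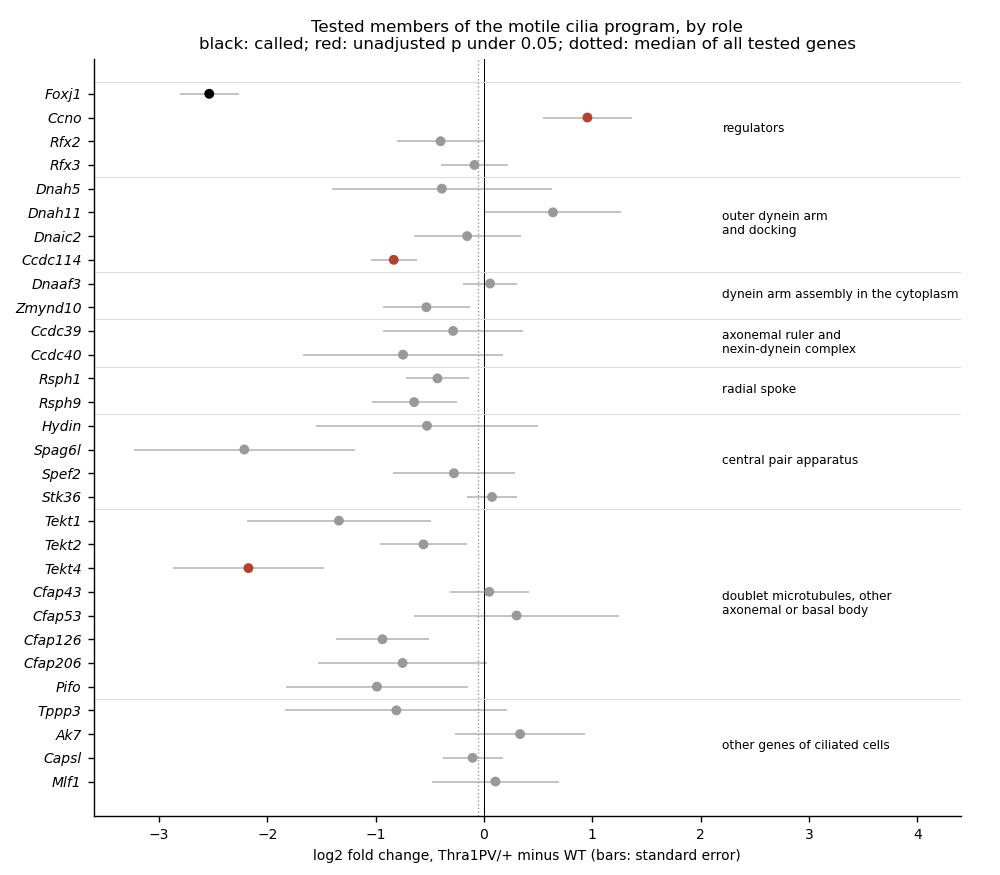
Log2 fold change (Thra1PV/+ minus WT) with its standard error for the 30 tested members, grouped by role. Foxj1 (black) is called at -2.54, Ccdc114, Tekt4 and Ccno (red) have an unadjusted p under 0.05, and the dotted line is the median of all tested genes, -0.05.

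The captured tissue differed in makeup between libraries. Tppp3, Ccdc39, Rfx2, Rfx3, Dnaic2, Ccdc40 and Spef2 were highest in the libraries with the most stroma RNA. The other tested members, Foxj1 included, had another order. How many of all genes were highest in those libraries was not counted. The 12 stroma markers, led by Col3a1, summed to 6488, 6434, 2318 and 2386 CPM in WT and 6719.8, 635, 1394 and 1789 CPM in Thra1PV/+ libraries 1 to 4. The 12 simple epithelium markers, led by Krt19, summed to 2639, 3352, 7450.4 and 6939 CPM in WT and 2842, 6286, 6854 and 5079.9 CPM in Thra1PV/+ libraries 1 to 4. WT libraries 1 and 2 and Thra1PV/+ library 1 were thus high in stroma and low in epithelium. All 12 stroma markers had a negative log2 fold change (median -0.83), and edgeR called 0 of them, with 2 lower at an unadjusted p under 0.05, beside 4.72% of all genes. Without Thra1PV/+ library 1 the median was -1.67 with 8 lower at such a p, beside 6.29% of all genes. Without WT library 2 it was -0.45 with 9 of 12 negative, and 8 of 12 were negative without Thra1PV/+ library 2. DESeq2 called 2 lower and limma voom 0, with 3 and 6 lower at an unadjusted p under 0.05. When the mean log2 CPM of the stroma markers was entered as a covariate, an alternative chosen after seeing the data, the median of the members beside Foxj1 was 0.044 and 12 of 29 were negative, beside -0.03 and 53.2% over all genes. A longer list of motile cilia genes had a median of -0.21 with it, 45 of 66 being negative. Foxj1, known to be lower when the genes were listed, then had a log2 fold change of -2.36 and Tppp3 of 0.01. This covariate came from the same libraries and leaned lower in Thra1PV/+, so it can also take up part of a genotype difference. With it edgeR called 392 genes in all where the comparison without it called 180.

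The 8 smooth muscle markers, led by Acta2, summed to 13143, 648, 573 and 1146 CPM in WT and 352, 146, 178 and 687 CPM in Thra1PV/+ libraries 1 to 4, and WT library 1 stood far above the rest. All 8 had a negative log2 fold change and an unadjusted p under 0.05 with edgeR, 0 were called, and without WT library 1 only 1 had such a p. Without Thra1PV/+ library 1, 2 or 3 there were 5, 4 and 4. DESeq2 and limma voom gave 1 and 7 such genes and called 0. Without WT library 1, 2 members beside Foxj1 were lower and 0 higher at an unadjusted p under 0.05, beside 3.53% and 5.40% of all genes. Oviduct epithelium is rich in ciliated cells, and its marker Ovgp1 had 7.73, 96.3, 8.28 and 53.2 CPM in WT and 5.55, 7.16, 8.60 and 8.93 CPM in Thra1PV/+ libraries 1 to 4. WT libraries 2 and 4 were high, WT libraries 1 and 3 lay among the Thra1PV/+ libraries, and Foxj1 was high in all 4 WT libraries. The 8 oviduct markers, led by Pax2, summed to 79.6, 244, 199 and 177 CPM in WT and 156, 130.0, 127 and 144 CPM in Thra1PV/+ libraries 1 to 4. Of these 4 were tested, 2 with a negative log2 fold change, for a median of -0.0017. By edgeR 0 were called, and 1 was lower at an unadjusted p under 0.05 (without WT library 2, 0 lower and 1 higher). DESeq2 called 2 lower, and Dcpp1, Dcpp2 and Dcpp3 were at 0 in every library. Markers of stratified squamous epithelium were high in all Thra1PV/+ libraries: the 14 markers, led by Sprr1a, summed to 3252, 5080.5, 5182 and 3819 CPM there and 19.2, 43.9, 122 and 58.9 CPM in WT libraries 1 to 4, with 10 of 13 tested called higher, and 5 without WT library 4. Among simple epithelium markers edgeR, DESeq2 and limma voom called 0, and 0, 1 and 1 were higher at an unadjusted p under 0.05, with at most 1 in either direction when edgeR left out a library. With the stroma markers as a covariate 5 of 12 were lower and 1 higher at such a p, beside 6.97% and 8.92% of all genes. Their median was then -0.58, where it was 0.14 without the covariate. The part of smooth muscle, oviduct and squamous cells in the results on Foxj1 and the other members was not tested beyond the values given.

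The remaining marker lists gave few or no calls. The 10 gland markers found, led by Muc1, summed to 459, 361, 1330.2 and 941 CPM in WT and 337, 835, 711 and 584 CPM in Thra1PV/+ libraries 1 to 4. By this sum WT libraries 3 and 4 and Thra1PV/+ library 2 were highest. By the mean log2 CPM that Foxj1 was set against, WT library 2 was highest (2.77) and WT library 3 lowest (1.24). The 6 endothelial markers found, led by Emcn, summed to 200.02, 181, 71.9 and 93.1 CPM in WT and 217, 54.8, 114 and 108 CPM in Thra1PV/+ libraries 1 to 4. The 5 blood cell markers found, led by Hba-a2, summed to 179, 57.5, 17.1 and 19.6 CPM in WT and 29.3, 14.6, 17.3 and 19.4 CPM in Thra1PV/+ libraries 1 to 4 (median log2 fold change -1.78 over 5 tested). WT library 1 stood highest in the blood cell markers, and without it their median was -0.63 with 0 lower at an unadjusted p under 0.05. With limma voom the median was -0.998. The 8 leukocyte markers found, led by S100a9, summed to 111, 69.9, 239 and 225 CPM in WT and 304, 836, 466 and 198 CPM in Thra1PV/+ libraries 1 to 4 (median log2 fold change 1.21 over 8 tested). Thra1PV/+ library 2 was highest. The 6 mesothelial markers found, led by Krt7, summed to 307, 253, 525 and 406 CPM in WT and 347, 551, 567 and 442 CPM in Thra1PV/+ libraries 1 to 4. Krt7 is also among the simple epithelium markers. No direction is given for 3 of these lists, since the sign of their median turned. The gland median was -0.33 over 7 tested and 0.082 with limma voom. The endothelial median was -0.17 over 6 tested, 0.16 without WT library 1, 0.082 without WT library 2 and 0.069 without Thra1PV/+ library 2. The mesothelial median was -0.63 over 3 tested, 0.22 without WT library 2, 0.53 with DESeq2 and 0.67 with limma voom. In these 5 lists edgeR called 0 genes, and at an unadjusted p under 0.05 it had 1 gland marker and 2 blood cell markers lower and 4 leukocyte markers higher, beside 4.72% lower and 5.05% higher of all genes. With a library left out, between 0 and 2 gland markers and between 0 and 5 blood cell markers were lower. The leukocyte count was 1 without WT library 2 or Thra1PV/+ library 3, and 2 without WT library 1 or 3 or Thra1PV/+ library 1. DESeq2 called 2 leukocyte markers higher and 0 others in these lists, and limma voom called 0. With the stroma markers as a covariate edgeR called 1 gland marker lower, and the gland median was -1.10. At an unadjusted p under 0.05, 3 of 7 gland markers were then lower and 4 of 6 endothelial markers higher. Of all genes 6.97% were lower and 8.92% higher at such a p with this covariate. The endothelial median was then 0.79 and the blood cell median -0.37. The part of these cells in the results on the members was not tested.

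**Figure D4:**
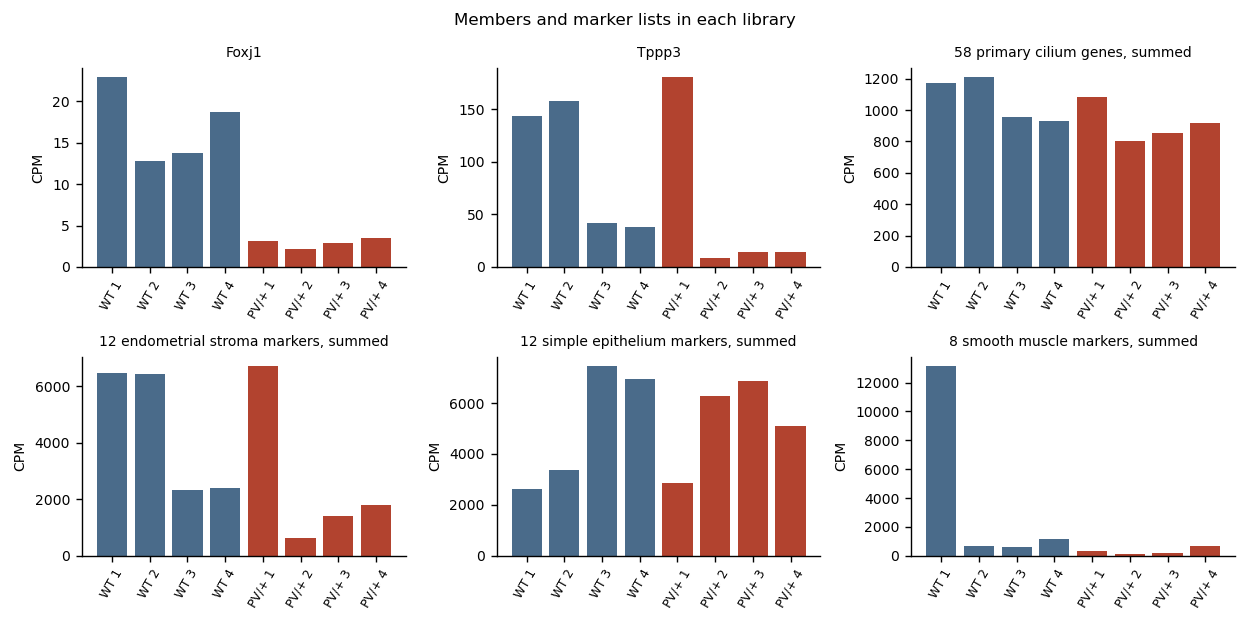
CPM of Foxj1 and Tppp3 and summed CPM of 58 primary cilium genes and of stroma, simple epithelium and smooth muscle markers in each WT (blue) and Thra1PV/+ (red) library. Tppp3 and the stroma markers are highest in WT libraries 1 and 2 and Thra1PV/+ library 1, Foxj1 is higher in each WT library, and WT library 1 holds 13143 CPM of smooth muscle markers.

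A longer list of 102 further motile cilia genes, of which 98 were found and 66 tested, had a median log2 fold change of -0.35, and 45 of 66 were negative, beside -0.053 and 56.8% over all tested genes. The median was -0.22 without WT library 1, -0.19 without WT library 2 and -0.21 with the stroma markers as a covariate, beside 0.0025, -0.0087 and -0.03 over all genes. With Trp73 at its lower bound the median was the same. By edgeR 0 were called lower and 2 higher, shares of 0% and 3.03% beside 0.066% and 0.924% of all genes. At an unadjusted p under 0.05, 9 were lower and 3 higher, shares of 13.6% and 4.55% beside 4.72% and 5.05%. The count lower was 5 without WT library 1, beside 3.53% of all genes, and 6 without Thra1PV/+ library 2 or 3, beside 2.56% and 2.44%. DESeq2 called 4 of 94 lower (Ttc25, Enkur and Nme5 among them) and 3 higher, beside 0.736% and 1.87% of all genes. Limma voom called 2 of 66 lower (Enkur among them) and 2 higher, beside 0.319% and 1.39%. Ttc25, which belongs to the docking complex with Ccdc114, had 2.77, 2.76, 2.11 and 2.16 CPM in WT and 1.03, 0.731, 1.47 and 1.49 CPM in Thra1PV/+ libraries 1 to 4. The genotypes did not overlap (log2 fold change -1.05, standard error 0.33, adjusted p = 0.334). Enkur, a protein inside the doublet, had 7.21, 6.81, 2.86 and 3.47 CPM in WT and 3.19, 1.03, 0.756 and 1.24 CPM in Thra1PV/+ libraries 1 to 4, and Thra1PV/+ library 1 reached into the WT range (log2 fold change -1.71, adjusted p = 0.344). Nme5, a radial spoke protein, had 4.87, 3.12, 0.995 and 2.47 CPM in WT and 1.58, 0.507, 0.715 and 0.893 CPM in Thra1PV/+ libraries 1 to 4, and WT library 3 lay among the Thra1PV/+ libraries (log2 fold change -1.63, adjusted p = 0.367).

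In the other direction, Trp73, a p53 family factor that is needed for multiciliated cells and is also expressed in stratified epithelia, had 3, 1, 0 and 0 counts in WT libraries 1 to 4. It had 222, 118, 128 and 139 counts in Thra1PV/+ libraries 1 to 4. Every WT library was at or under 3 counts, so Trp73 was at least 49.3-fold higher in Thra1PV/+ endometrium against the floor of 3 counts per library (adjusted p = 0.0108). On log2 of TPM plus 1, a scale that understates changes of low genes, its log2 fold change was 0.76, under the threshold. It was high in the libraries that held the squamous markers, whose part was not tested. 1700007K13Rik, which encodes a protein inside the doublet, had 0.267, 0.181, 0.139 and 0.293 CPM in WT and 0.588, 0.954, 2.10 and 1.37 CPM in Thra1PV/+ libraries 1 to 4. The genotypes did not overlap (log2 fold change 2.50, standard error 0.49, adjusted p = 0.0893), and the call was lost in all comparisons that left out a library except that without Thra1PV/+ library 1, and in 4 other settings (adjusted p 0.000122 to 0.330 over all settings tried). Cfap161 had 1.18, 0.542, 0.895 and 0.712 CPM in WT and 1.56, 1.56, 1.61 and 2.50 CPM in Thra1PV/+ libraries 1 to 4, without overlap (log2 fold change 1.12, adjusted p = 0.344, and 0.0342 by DESeq2, in a range of 0.0342 to 0.669 over all settings tried).

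Genes of the primary cilium and of intraflagellar transport serve cilia of most cells. All 58 listed were found and tested, 53 had a negative log2 fold change, and the median was -0.23, beside 56.8% negative and a median of -0.053 over all tested genes. Of the 58, 0 were called by edgeR, DESeq2 or limma voom. At an unadjusted p under 0.05 these had 4, 3 and 6 lower and 0 higher, shares lower of 6.90%, 5.17% and 10.3% beside 4.72%, 3.85% and 6.33% of all genes. With edgeR the count lower was 2 without WT library 1 or 2 or Thra1PV/+ library 2 or 3. Without WT library 1, 41 were negative, beside 49.6% of all genes, and the median was -0.12. The median was -0.10 without WT library 2 and -0.15 without Thra1PV/+ library 2, beside -0.0087 and -0.058 over all genes. Their summed level was 1170.0, 1208, 957 and 931 CPM in WT and 1086, 805, 855 and 916 CPM in Thra1PV/+ libraries 1 to 4, highest in the 3 libraries with the most stroma markers. With the stroma markers as a covariate, 24 of 58 were negative and the median was 0.02, beside 53.2% and -0.03 over all genes. Ift43, of the retrograde transport complex, had 37.7, 32.2, 36.7 and 34.0 CPM in WT and 23.7, 21.9, 26.6 and 27.7 CPM in Thra1PV/+ libraries 1 to 4. The genotypes did not overlap (log2 fold change -0.49, standard error 0.13, adjusted p = 0.206). Ift122, of the same complex, had 35.9, 35.4, 32.2 and 17.5 CPM in WT and 19.5, 14.5, 15.7 and 18.6 CPM in Thra1PV/+ libraries 1 to 4, with WT library 4 among the Thra1PV/+ libraries (log2 fold change -0.83, adjusted p = 0.287). Without WT library 4 its log2 fold change was -1.02 (adjusted p = 0.0676), which passed the thresholds (adjusted p 0.0676 to 0.671 over all settings tried). Ift46 (-0.38, adjusted p = 0.452) and Wdr34 (-0.33, adjusted p = 0.511) had smaller log2 fold changes.

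**Figure D5:**
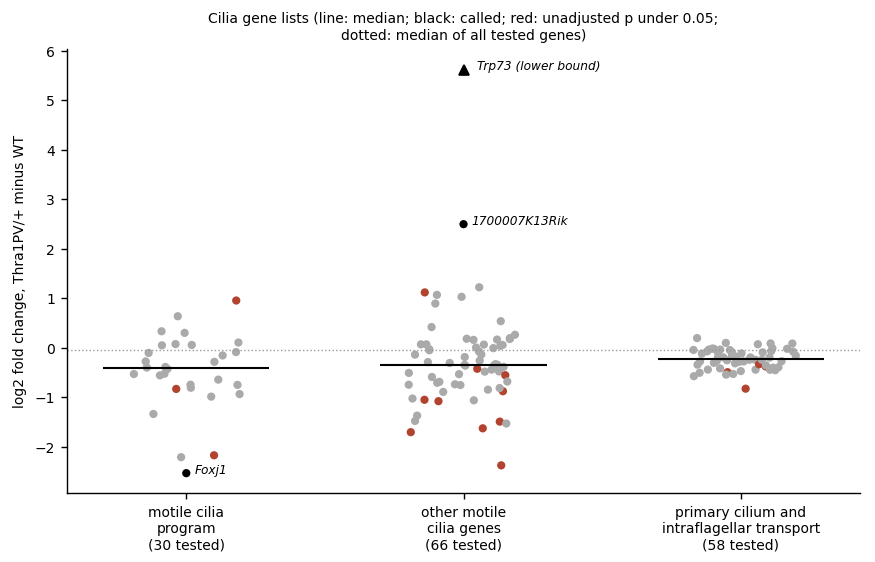
Log2 fold change (Thra1PV/+ minus WT) of each tested gene in 3 lists, with the median of each list as a line and that of all tested genes dotted; Trp73 is drawn at its lower bound. Medians are -0.41, -0.35 and -0.23, and the called genes are Foxj1, Trp73 and 1700007K13Rik.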

How the data were processed

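RNA was measured in 8 libraries of laser-captured endometrium, 4 per genotype. The libraries were stranded, from mRNA, and sequenced from both ends; the authors, per the submitters' processing notes, used Trimmomatic, Salmon, DESeq2 and mm10, with versions not given in the sources used here. The deposited estimated count values are per gene and not normalized. The deposited TPM values had nearly the same sorted values in every library (largest difference 0.291 TPM at any rank), the form that quantile normalization gives, and were used to order genes by level. Of the TPM table, 1 further column, headed as a WT sample and holding negative values, was not used.

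Estimated counts were rounded to whole numbers and tested in R 4.3.3 with edgeR 4.0.16 (filterByExpr with minimum count 10 and minimum total count 15, TMM, quasi-likelihood test, genotype as the only term). Benjamini-Hochberg adjustment covered all 18174 tested genes. Standard errors are the size of the log2 fold change over the square root of F. CPM were TMM-normalized, and log2 CPM used a prior count of 2. Counts of 3 or fewer in all libraries of a genotype were treated as a floor, which covers counting error only. Of 52325 identifiers 52220 matched a gene symbol, and those without one held at most 0.00897% of a library's counts. Positions are from GENCODE M21 (GRCm38), in which 34 of the 44 members have the same identifier version. DESeq2 1.42.0 and limma 3.58.1 were alternatives, with other scalings, filters and inputs, a replicate block and each library left out in turn. The edgeR and DESeq2 tests were first checked on counts simulated with the spread that edgeR estimated. There DESeq2 called more unchanged genes than edgeR at the same adjusted p. The limma tests, the replicate block and the stroma covariate were not checked in this way.

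Members named with full values were Foxj1, those called, those with an unadjusted p under 0.05 or no overlap, and the member of each role with the highest mean TPM. Of the other motile cilia and primary cilium genes, the called genes and up to 4 per direction with the lowest unadjusted p were named, and 1 gene that this rule takes is not reported here. The members and lists were chosen with earlier results of these data known. The 10 marker lists also covered mesothelium, endothelium, leukocytes and blood.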

Additional observations from a re-analysis of the deposited data

Results flagged for a closer look

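Of 68 groups of 4 libraries, 4 held a library far from its group, where chance gives about 1 in 20 groups, or 3.4. For Trp73 this was Thra1PV/+ library 1, with log2 CPM at 2.04, the nearest other library of its genotype at 1.41 and the farthest at 1.28, a gap of 0.835 of the whole range. For Cfap161 it was Thra1PV/+ library 4, with log2 CPM at 1.35, the nearest other library of its genotype at 0.72 and the farthest at 0.68, a gap of 0.929 of the whole range. For Ift122 it was WT library 4, with log2 CPM at 4.14, the nearest other library of its genotype at 5.01 and the farthest at 5.17, a gap of 0.849 of the whole range. For the mean of the oviduct epithelium markers it was WT library 2, with mean log2 CPM at 1.09, the nearest other library of its genotype at 0.08 and the farthest at -0.09, a gap of 0.855 of the whole range.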

How the results depend on the processing

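Of 590 recomputed values, 531 kept their direction and their side of the threshold or stayed near the reported value. These include genes that were not called and stayed so. A median counted as near if it moved by less than its SD between libraries. For the members this SD was 0.415 and their median -0.415, so this count says little about how stable that median is. The 14 members under the filter had at most 31 counts in any library, and edgeR tested them only where genes needed 1 count in some library. At an unadjusted p under 0.05, members, Foxj1 included, were lower in number 6 with DESeq2 (3.85% of all genes), 5 and 6 with limma on log2 of TPM plus 0.1 and plus 1 (4.05% and 3.74%), and 6 with limma voom (6.33%). DESeq2 called 2 members lower. The count of members higher was 0 when genes needed 1 count in some library or 10 in each, and with both TPM settings and the replicate block. Of the other motile cilia genes 5 were lower with library size only (2.87% of all genes), and 1 was higher with at least 10 counts in every library (4.43%) and 5 with the stroma markers as a covariate (8.92%), an alternative chosen after seeing the data. That covariate gave medians of 0.029 for the members, 0.025 for the primary cilium genes and -0.21 for the other motile cilia genes. The median of the other motile cilia genes was -0.18 and -0.10 with TPM plus 0.1 and plus 1. That of the members was -0.24 and -0.10 in these settings, beside -0.0225 and -0.018 over all genes. Signs reversed for Dnaaf3 (-0.077 and -0.05) and Stk36 (-0.14 and -0.10) with TPM plus 0.1 and plus 1, for Ccdc39 with limma voom (0.14) and the covariate (0.99), and for Tppp3 with the covariate (0.012). The cause was not tested.

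Leaving out each library in turn gave 3 to 6 members, Foxj1 included, lower and 0 to 1 higher at an unadjusted p under 0.05. Of the other motile cilia genes 5 to 10 were lower at such a p. Of all genes 2.44% to 6.29% were lower and 4.06% to 5.89% higher in these comparisons. The medians ran from -0.65 to -0.20 for members, -0.42 to -0.19 for other motile cilia genes and -0.31 to -0.099 for primary cilium genes. The log2 fold changes ran from -2.64 to -2.32 for Foxj1, -0.076 to 0.21 for Dnaaf3, -0.58 to 0.17 for Ccdc39 and -0.012 to 0.20 for Stk36. Foxj1 relative to gland markers ran from -2.82 to -2.18 and relative to simple epithelium markers from -3.15 to -2.53.

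No pairing of libraries by replicate number was seen, though these values cannot exclude one. Deviations of same-numbered libraries had correlations of 0.269, -0.436, 0.340 and -0.159, and not every library correlated best with its own number. With the replicate block edgeR called 82 genes where it called 180 without, 1 member was called lower, and Foxj1 had a log2 fold change of -2.52.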
